A study of Mus musculus with 8 samples.

Results

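The *Hox* genes described here are 38 protein-coding genes of the count table whose mouse symbol is Hoxa, Hoxb, Hoxc or Hoxd followed by a number alone, of 48526 genes in all. They fall into 4 clusters, HoxA to HoxD, and are ordered by paralogue group, the number that members at the same relative position of the clusters share. RNA was sequenced from the left and the right heart field of 4 embryos at E8.5f, named L29-3, L43-5, L46-8 and L49-3, so that the 8 libraries form 4 pairs, each from a single embryo. All embryos were wild-type males of the C57bl6/J strain, with no mutant allele and no treatment in either group. Each library is the left or right piece of the trunk region that holds the heart field, with the headfolds as its front limit and the second somite as its hind limit, and without the heart tube and the dorsal tissue. It is a mixture of the cell types present between these limits.

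*Hox* genes encode homeodomain transcription factors that give cells of the embryo their position along the head-to-tail axis. Within a cluster, members with a low number lie towards the 3′ end, are switched on earlier and reach further towards the head than members with a high number, a rule known as collinearity. Retinoic acid activates the 3′ members, and HOX proteins bind DNA together with PBX and MEIS, homeodomain cofactors of the TALE class. In heart development, *Hoxb1* is known as a marker of posterior precursors of the second heart field, which add cells to both poles of the heart tube, and the study used *Hoxa5* and *Hoxb6* as markers of tissue behind the heart field and *En2* and *Wnt8b* of tissue in front of it.

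Total counts lay between 1147446 and 3520753, and both libraries of L49-3, the left one with 1237593 and the right one with 1147446, were the shallowest. Levels are given as normalized counts, the reads of a gene divided by the DESeq2 size factor of the library. For its tests the study took DESeq2-normalized counts under 20 as background. It kept genes with 20 or more in at least 4 of the 8 libraries. For its plotted read counts it set a separate background level of 5.6. That level is applied here to DESeq2-normalized counts, whose scale may differ, and is called the background level. A count of 3 reads, taken as the limit that a count of 0 allows, is worth between 0.852 and 2.61 CPM in a library (reads scaled by the total count, with no other normalization), and intervals and limits cover counting error only. *Isl1*, the defining marker of the second heart field, had at least 91.6 normalized counts in each library, and the 8 cardiomyocyte markers summed to between 745 and 6294 although the heart had been removed. No marker of primitive blood passed the filter.

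The *Hox* signal of the heart field lay in the low paralogue groups. Of 2013 reads of the 38 members described, 1843 came from members of groups 1 to 4, 158 from members of groups 5 to 8 and 12 from the 16 members of groups 9 to 13. By embryo, with both sides pooled, *Hoxb1* and *Hoxd1* of group 1 together held 35.5% ± 5.32 (SD, n = 4) of these reads. The share was 20.4% ± 2.26 for group 2 and 24.2% ± 8.97 for group 3. It was 11.9% ± 5.17 for group 4 and 3.94% ± 1.39 for group 5, and 3.46% ± 1.27 for groups 6 to 8 and 0.557% ± 0.266 for groups 9 to 13 (SD, n = 4 in each). The shares of groups 2 and 3 lay within the spread between embryos, and so did those of group 5 and groups 6 to 8. In L49-3 group 3 held 37.2%, more than *Hoxb1* and *Hoxd1* with 27.6%.

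**Figure D1:**
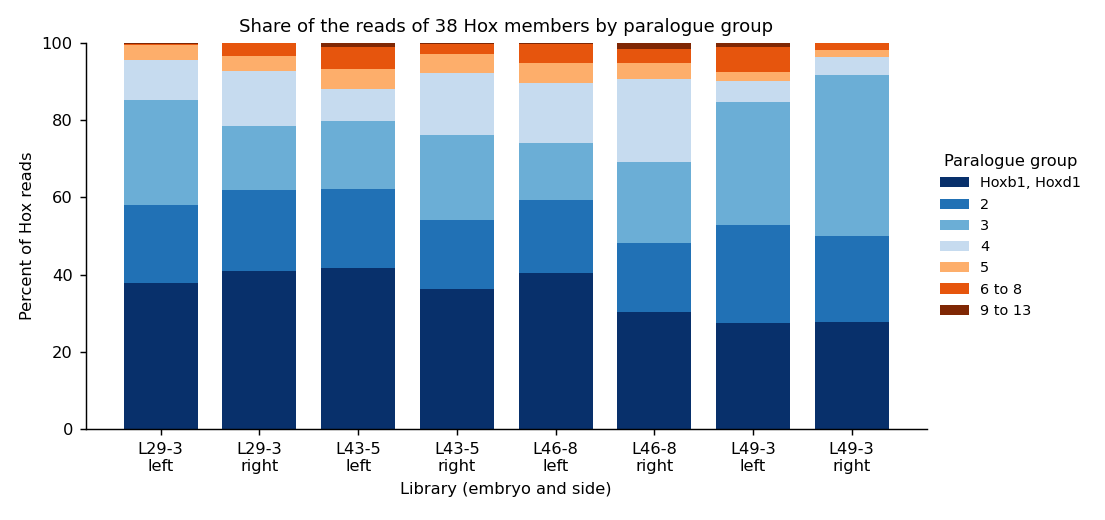
Percent of the reads of the 38 members described (y axis) that each paralogue group takes, in stacked bars for the 8 libraries (x axis, embryo and side). *Hoxb1* and *Hoxd1*, at the bottom, take between 27.5% and 41.7% in each library, and groups 9 to 13 at most 1.74%.

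Of the members described, 3 passed the filter on expression, namely *Hoxb1*, *Hoxb2* and *Hoxa3*, and they held 54.9% of the reads. Of the 35 others, 13 had at least 10 reads over the 8 libraries, 8 had between 1 and 5 reads and 14 had 0. A count of 0 in all libraries allows up to 0.182 CPM. A mean over the background level of 5.6 was reached by 9 members, all of groups 1 to 4, and 7 members had reads in every library. Among the 16 members of groups 9 to 13, 12 had 0 reads. The other 4, named after their values were seen, were *Hoxa10* with 5 reads, *Hoxd9* with 4, *Hoxa11* with 2 and *Hoxd10* with 1.

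**Figure D2:**
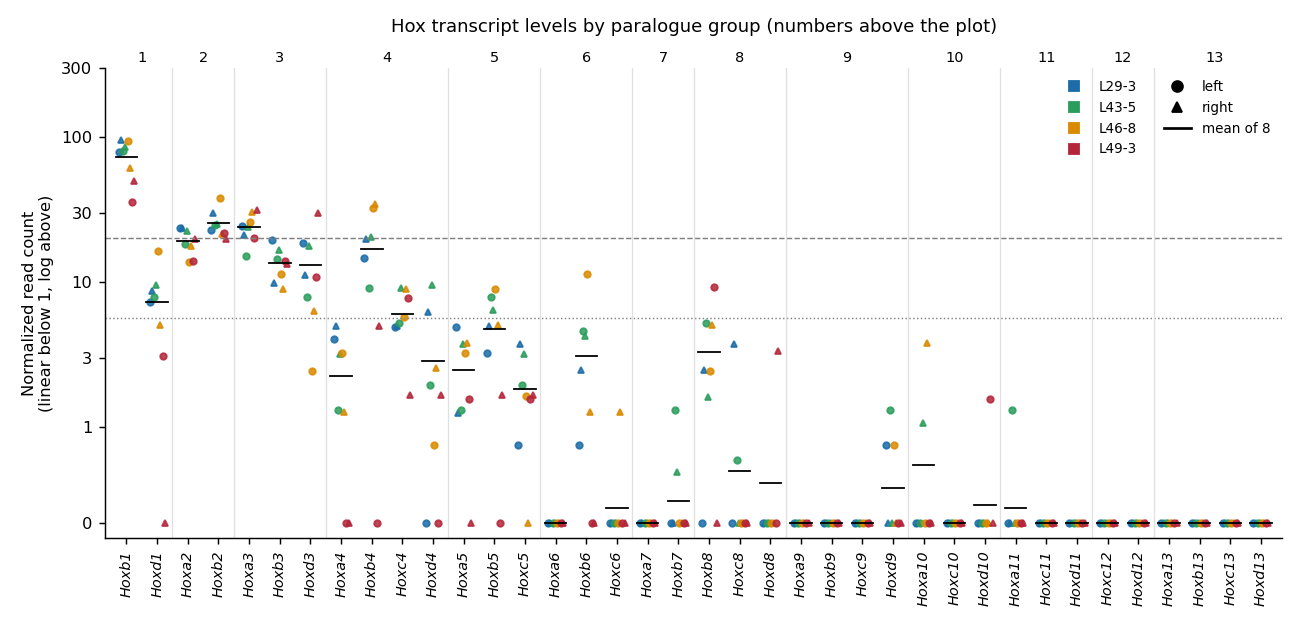
Normalized read count (y axis, linear below 1 and logarithmic above) of the 38 members described (x axis, by paralogue group, numbered above the plot). Colours mark embryos, circles left and triangles right libraries, black bars the mean of 8 libraries, and the dashed and dotted lines 20 and 5.6 normalized counts. Levels fall from *Hoxb1*, at 72.6 on average, to values near 0 from group 9 on.

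In paralogue group 1, *Hoxb1* lies on the plus strand at chr11:96365752-96368256 (GRCm38, GENCODE vM21). It is known for its expression in the fourth rhombomere of the hindbrain and in posterior heart precursors, and for maintaining its own transcription together with PBX. Its left libraries had 79.4, 80.2, 93.6 and 35.6 normalized counts, with the embryos taken in the order L29-3, L43-5, L46-8 and L49-3 here and below. Its right libraries had 95.3, 85.9, 60.9 and 49.9. Both sides of L49-3 were below all libraries of the other embryos, and the sides overlapped. *Hoxd1*, of the same group, had 72 reads, with up to 16.3 normalized counts in a library, and 2 and 0 reads on the left and right of L49-3.

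The 250 bases before the start of *Hoxb1* and of *Hoxb4*, members whose lowest levels on each side were in L49-3, are shown on the plus strand (RefSeq, GRCm38.p6). *Hoxb1* is read from chr11:96365508-96365757 and *Hoxb4* from chr11:96318017-96318266. Both sequences were searched on both strands for TGATNNAT (a PBX-HOX site), TGACAG (MEIS), AGGTCA (the half-site of nuclear receptors, retinoic acid receptors among them) and TTTATG (CDX), and capitals mark the matches, which do not overlap each other.
Hoxb1: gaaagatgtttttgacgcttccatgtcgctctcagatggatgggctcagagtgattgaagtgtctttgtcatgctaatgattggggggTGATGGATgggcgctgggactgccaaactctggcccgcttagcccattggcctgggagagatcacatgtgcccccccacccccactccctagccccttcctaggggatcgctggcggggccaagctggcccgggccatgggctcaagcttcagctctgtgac
Hoxb4: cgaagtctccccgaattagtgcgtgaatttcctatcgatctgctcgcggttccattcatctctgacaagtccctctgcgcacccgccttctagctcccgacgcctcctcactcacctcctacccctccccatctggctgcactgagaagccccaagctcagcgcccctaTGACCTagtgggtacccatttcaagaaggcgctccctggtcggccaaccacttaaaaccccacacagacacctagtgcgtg

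The *Hoxb1* promoter held 1 match, TGATGGAT on the plus strand from 162 to 155 bases before the start, and *Hoxb4* 1 match to the nuclear receptor half-site on the minus strand, 81 to 76 bases before the start. TGATNNAT occurred in 7.68% of the 32851 promoters of the same length and in 4 of the 24 promoters listed for 22 *Hox* members, and AGGTCA in 14.0% of all and in 6 of these 24. TGACAG occurred in 15.9% of all and in 2 of the 24, and TTTATG in 10.8% and in 5. These are matches of letters in a short window, and binding was not measured.

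In paralogue group 2, both members act in the patterning of the hindbrain, and *Hoxa2* also specifies the second branchial arch. *Hoxb2*, at chr11:96350525-96354012 on the plus strand, had 22.7, 24.8, 38.3 and 21.7 normalized counts in the left libraries. On the right it had 29.7, 25.1, 21.6 and 19.9. The highest value was in the left library of L46-8, and the sides overlapped. *Hoxa2*, at chr6:52162417-52164831 on the minus strand, had between 13.8 and 23.5 normalized counts and missed the filter, with 20 or more in 3 libraries.

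In paralogue group 3, *Hoxa3* is required for organs derived from the third pharyngeal arch and pouch, such as the thymus. It lies on the minus strand at chr6:52169062-52213336 and had 24.3, 15.0, 26.0 and 20.1 normalized counts in the left libraries. On the right it had 21.0, 24.0, 30.5 and 31.6. The sides overlapped, and no embryo stood apart. *Hoxb3* had 123 reads, with 8.88 to 19.5 normalized counts. *Hoxd3* had 110 reads, with its lowest level of 2.44 in the left library of L46-8 and its highest of 29.9 in the right library of L49-3.

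Paralogue group 4 had 1 member close to the filter. *Hoxb4*, at chr11:96318267-96321638 on the plus strand, is expressed in the caudal hindbrain and in mesoderm behind it. Its left libraries held 18, 14, 40 and 0 reads, or 14.6, 9.13, 32.6 and 0 normalized counts, where the limit in that last library is 4.64. Its right libraries held 16, 38, 27 and 3 reads, or 19.8, 20.3, 34.3 and 4.99 normalized counts. L46-8 was high and L49-3 low on both sides. *Hoxc4* had 55 reads, spread over all 8 libraries, *Hoxd4* had 30 and *Hoxa4* 22, with 0 in both libraries of L49-3 for *Hoxa4*.

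Members of groups 5 to 8 had means below the background level. *Hoxb5* had 48 reads and 4.76 ± 3.03 normalized counts (SD over 8 libraries), with more than 5.6 in 3 libraries. The posterior marker *Hoxa5*, at chr6:52201754-52204587, had 6, 2, 4 and 1 reads in the left libraries and 1, 7, 3 and 0 in the right ones. *Hoxb6*, at chr11:96292476-96301569, had 1, 7, 14 and 0 reads on the left and 2, 8, 1 and 0 on the right. The left library of L46-8, with 11.4 normalized counts, was the only one of the 8 in which *Hoxb6* exceeded 5.6, whereas both libraries of L49-3 lacked it. *Hoxc5* had 17 reads and *Hoxb8* 26, with 9.29 normalized counts in the left library of L49-3 and at most 5.22 in the others. Of the markers of tissue in front of the heart field, *En2* had 2 reads, all in L43-5, and *Wnt8b* 3, all in L29-3.

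Per kilobase of exon, *Hoxb1* had 31.3 ± 9.30 normalized counts (SD, n = 8 libraries), higher than *Hoxa2*, at 10.8 ± 2.21, in 8 of 8 libraries, and the library ranges of these 2 members did not overlap. Further down, *Hoxb2* had 7.30 ± 1.71, *Hoxb4* 6.61 ± 4.79, *Hoxa3* 4.003 ± 0.907 and *Hoxd1* 3.88 ± 2.60 normalized counts per kilobase. *Hoxb3* had 3.17 ± 0.817, *Hoxd3* 3.12 ± 2.08 and *Hoxc4* 2.34 ± 0.962, and from *Hoxa2* on the libraries of each member overlapped those of the next. Among the 16229 protein-coding genes with reads, *Hoxb1* lay at percentile 81.0 of the level per kilobase, against 41.5 for *Hoxa3*. The length used joins the exons of all annotated transcripts of a gene, 2322 bases for *Hoxb1* and 6014 for *Hoxa3*. Where the transcripts present are shorter than that, the level per kilobase is too low, so this order depends on the annotation.

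The left and right sides were compared within embryos to ask whether a *Hox* level differed between the sides. None of the 3 members described that passed the filter was past the threshold of the study (fold change of 1.2 or more, unadjusted p not above 0.05), in a comparison where 3.05% of the 9744 genes tested passed and 1.42% passed with a lower level on the left. At an unadjusted p under 0.05, 0 of the 3 were called by edgeR, DESeq2 or limma-voom, which called 425, 65 and 457 of the 9744 genes. At an adjusted p under 0.05, 0 of the 3 were called by any of these tools. By edgeR this p was reached by 0.0103% of all genes (0.0176% with the lower filter described below). The sides overlapped for each of the 3, whereas 2.51% of the genes tested did not overlap (1.01% with all left libraries below), and 0 of the 3 were lower on the left in all 4 embryos, as 6.11% of the genes tested were.

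*Hoxb1* had a log2 difference of left minus right of -0.02 (SE 0.172, unadjusted p = 0.919 from edgeR) and was below the right side in 3 of 4 embryos. Its sign turned when L29-3, L43-5 or L49-3 was left out. *Hoxb2* had 0.13 (SE 0.256, unadjusted p = 0.632), which became -0.11 without L46-8, and *Hoxa3* had -0.34 (SE 0.252, unadjusted p = 0.208), with the left library below the right one in 3 of 4 embryos.

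**Figure D3:**
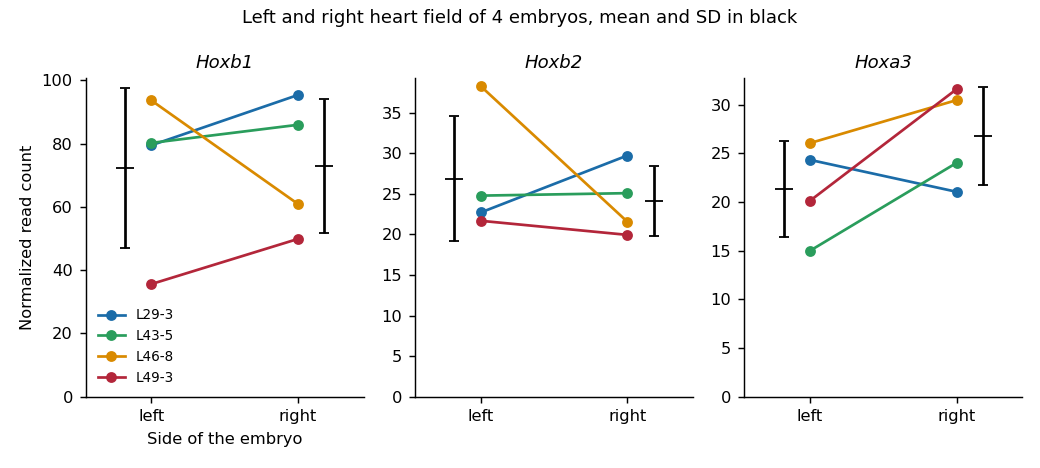
Normalized read count (y axis, from 0) in the left and right heart field (x axis) for the 3 members described that passed the filter. Lines join the sides of an embryo, and black marks give the mean and SD of 4 embryos on each side. In each panel lines rise in some embryos and fall in others, and the sides overlap.

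With a lower filter, filterByExpr of edgeR, 4 more members were tested. It kept 11390 genes, of which 3.19% passed the threshold of the study. *Hoxb4* had a log2 difference of -0.61 (SE 0.349, unadjusted p = 0.103 from edgeR) and *Hoxd3* of -0.69 (SE 0.408, unadjusted p = 0.114). *Hoxa2* had -0.26 (SE 0.266, unadjusted p = 0.339) and *Hoxb3* 0.25 (SE 0.326, unadjusted p = 0.460). None of these 4 passed, although without L29-3 *Hoxd3* had -1.29 (unadjusted p = 0.00999). Of the 16 members described with at least 10 reads, *Hoxb4* and *Hoxd4* were lower on the left in all 4 embryos, in a table where 6.13% of the genes with at least 10 reads were, and *Hoxd4*, tested only with no filter, was then past the threshold of the study, as were 2.88% of 23873 genes. *Hoxd4* had 0, 3, 1 and 0 reads on the left and 5, 18, 2 and 1 on the right.

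The sum of the members described was lower on the left side of 3 of the 4 embryos. It was 229, 211, 273 and 141 normalized counts in the left libraries and 254, 264, 218 and 179 in the right ones. The mean log2 ratio of left to right was -0.12 ± 0.31 (SD, n = 4), so that the difference was smaller than the spread between embryos. It was -0.27 without L46-8, -0.058 without L43-5 and -0.049 without L49-3.

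Some markers of the neural tube were lower on the left. Of the 8 of its 10 markers tested, *Sox1*, with a log2 difference of -0.98 (unadjusted p = 0.0167, adjusted p = 0.987 from edgeR), and *Pax6*, with -0.83 (unadjusted p = 0.0142, adjusted p = 0.987), were past the threshold of the study, both lower on the left in 3 of 4 embryos. Of all genes tested, 3.05% passed this threshold and 1.42% passed it with a lower level on the left. The summed level of the 10 markers was 718, 422, 505 and 1045 normalized counts in the left libraries, and 566, 805, 765 and 1122 in the right ones. The left range of 422 to 1045 thus overlapped the right range of 566 to 1122, and 0 of the 10 markers were at 0 in all libraries. Their part in the *Hox* values was not tested. In such pieces of tissue, fewer cells of a type and less RNA per cell cannot be told apart.

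Since a dissection sets the axial level of both sides of an embryo at once, the 4 embryos were also compared with each other, by an F-test that takes the spread that remains between the sides after a common effect of side. The sides are parts of the same animal, so the test concerns these 4 embryos only. At an adjusted p under 0.05, 0 of the 3 members were called by edgeR, DESeq2 or limma-voom, where edgeR called 0.174% of the 9744 genes. *Hoxb1* had a range between embryos of 1.02 on the log2 scale (unadjusted p = 0.0145, adjusted p = 0.320 from edgeR), and was the only member of the 3 with an unadjusted p under 0.05, which 9.99% of all genes had. With limma-voom 1 member and with DESeq2 0 members had such a p, against 957 and 383 of the 9744 genes. *Hoxb2* had a range of 0.55 (unadjusted p = 0.589) and *Hoxa3* of 0.54 (unadjusted p = 0.450), against a median of 0.32 over all genes tested.

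With the lower filter, *Hoxb4* had the widest range of the 7 members tested, 3.79 on the log2 scale (unadjusted p = 0.00101, adjusted p = 0.112 from edgeR), where L49-3 had 3 reads in all so that the fitted size is not exact, and *Hoxd3* had 2.21 (unadjusted p = 0.0322, adjusted p = 0.439). Without L46-8 the range of *Hoxd3* was 0.65 (unadjusted p = 0.483 from edgeR), and with DESeq2 its unadjusted p was 0.0923. Here 0.272% of the 11390 genes had an adjusted p under 0.05 and 9.93% an unadjusted p under 0.05. With no filter, where 2.69% of 23873 genes were called, *Hoxb4* (adjusted p = 3.61e-06) and *Hoxb1* (adjusted p = 0.0131) were past 0.05. The call on these members therefore depended on the filter. With no filter the share called rose over all genes too, so these 2 p-values cannot be set against those of the filtered fits.

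The lowest embryo for both members was L49-3. With both sides pooled, *Hoxb1* had 45.7 CPM (95% exact Poisson interval 39.1 to 53.0), 44.5 (39.5 to 49.96), 42.4 (36.1 to 49.4) and, last, 22.2 (16.6 to 29.1) in L49-3. *Hoxb4* had 8.87 (6.14 to 12.4), 8.14 (6.08 to 10.7), 17.4 (13.5 to 22.1) and 1.26 (0.259 to 3.68) in the same order. The next lowest embryo was thus 1.91 times (95% interval 1.39 to 2.65) as high as L49-3 for *Hoxb1* and 6.47 times (2.10 to 32.4) for *Hoxb4*, by counting error alone. L49-3 was chosen for its low values, so these ratios are a description. Without it, the range of *Hoxb1* was 0.14 (unadjusted p = 0.834 from edgeR) and that of *Hoxb4* 1.23 (unadjusted p = 0.0138, adjusted p = 0.992), with L46-8 the highest.

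In L49-3 the low levels did not extend to all paralogue groups. Group 3 had 31.0 CPM (24.4 to 38.95) in L49-3, the highest of the 4 embryos, but this interval overlaps those of all other embryos. *Hoxd3* of this group had 10.5 (6.78 to 15.5), against 2.08 (0.898 to 4.10) in L46-8, where it was lowest. The *Hoxd3* interval of L49-3 overlaps those of L29-3 and L43-5. Group 4 had 4.19 (2.01 to 7.71) in L49-3, against 15.1, 16.6 and 23.2 in the other embryos. Group 5 had 1.68 (0.457 to 4.29), against 4.96, 6.58 and 6.24, and the Poisson interval of L49-3 overlaps those of L29-3 and L46-8 there. Group 8 had 3.35 (1.448 to 6.61) in L49-3, on 8 reads, against 1.30 to 1.88, and its interval overlaps those of all other embryos.

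Of the 16 members described with at least 10 reads, 10 had their lowest pooled level in L49-3. Over all 16208 genes with at least 10 reads, 34.8% were lowest in L49-3. The exceptions were *Hoxa2*, *Hoxa3*, *Hoxb3*, *Hoxd3*, *Hoxc5* and *Hoxb8*. The low totals of L49-3 widen the intervals of the 16 members, and the part of depth in the count was not tested.

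**Figure D4:**
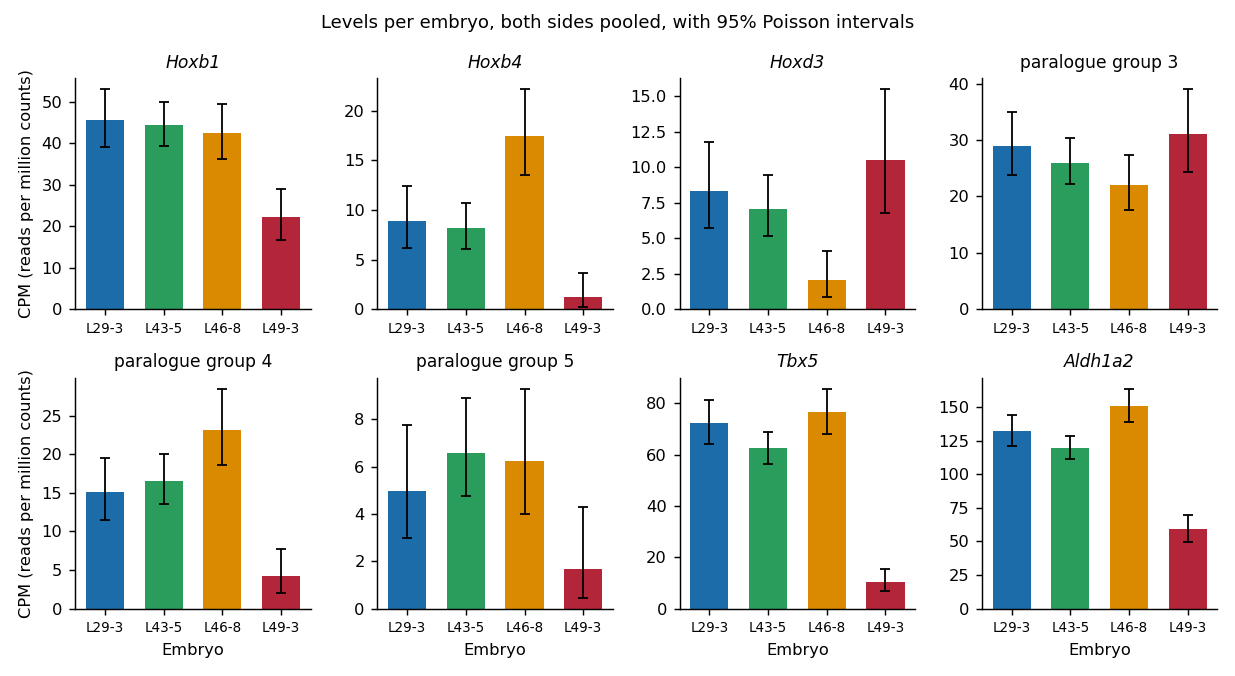
CPM with both sides pooled (y axis, from 0) for each embryo (x axis), with 95% exact Poisson intervals that cover counting error only. L49-3 (red) is lowest for *Hoxb1*, *Hoxb4*, paralogue groups 4 and 5, *Tbx5* and *Aldh1a2*, and highest for *Hoxd3* and paralogue group 3.

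Some other markers of the posterior and lateral heart field were low in the same embryo. *Tbx5*, which marks the posterior heart field and the inflow, had 10.5 CPM (6.78 to 15.5) in L49-3, against 62.5 to 76.5 in the other embryos, and was called in the comparison of embryos (range 2.84 on the log2 scale, adjusted p = 0.0201 from edgeR). *Aldh1a2*, which encodes the enzyme that makes retinoic acid in the mesoderm, had 59.1 (49.8 to 69.7) against 119 to 151, with a range of 1.33 (adjusted p = 0.0532). *Hand2*, on the same list as *Tbx5*, was not low, with 104 and 151 normalized counts on the left and right of L49-3 (adjusted p = 0.993 from edgeR). *Osr1* of that list had 60.4 and 36.6 normalized counts on the left and right of L49-3, and *Foxf1* 60.4 and 71.5. The right library of L49-3 was the lowest of all for *Osr1*, and the left one for *Foxf1*. Neither was called between embryos (adjusted p = 0.584 and 0.769 from edgeR). *Mab21l2*, *Wnt2* and *Hand1* of that list were lowest in L49-3, at 2.10, 13.8 and 13.4 CPM (adjusted p = 0.170, 0.158 and 0.268). *Isl1* had its highest pooled level in L49-3, at 82.2 (71.1 to 94.5) against 52.7 to 64.5 (adjusted p = 0.278 from edgeR). Its interval overlaps that of L46-8. The neural gene *Sox2* was also highest in L49-3, at 91.8 (80.1 to 105) against 40.1 to 54.8 (adjusted p = 0.142 from edgeR). Neither gene was called between embryos. *Meox1*, a gene of the somites, had 122 (108 to 137), within the 110 to 139 of the others. *Myh6*, a myosin of cardiomyocytes, was called between embryos (adjusted p = 0.0470 from edgeR), with 40.3 normalized counts in the left and 234 in the right library of L49-3, against 430 to 1548 in the other libraries. *Myh7*, another cardiac myosin, had 197 in the left library of L49-3 and 562 in its right one, against 258 to 683 elsewhere (adjusted p = 0.409). The summed cardiomyocyte markers were lowest in the left library of L49-3, at 745, but its right library, at 2508, was above the right library of L46-8, at 2150. These genes other than *Tbx5* and *Myh6* were picked after their values were seen, and the part of tissue composition in the *Hox* levels of L49-3 was not tested.

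Most of the rostral and caudal markers missed the filter. Those tested were *Otx2*, with 475 reads, and *Pax2*, with 221, among the rostral ones, and *T*, with 242, among the caudal ones. Between left and right, 3.05% of all genes tested passed the threshold of the study. Of 10 markers of forebrain, midbrain and their boundary, 2 were tested and 0 passed in either comparison, and they summed to between 42.1 and 240 normalized counts, with the highest sum in the left library of L49-3. Of 8 markers of tail bud and presomitic mesoderm, 1 was tested and 0 passed the left-right threshold or an adjusted p under 0.05 between embryos, with sums between 42.3 and 93.1. *Msgn1*, a defining gene of presomitic mesoderm, had 0 reads.

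Among the partners of the *Hox* factors, 8 of 9 cofactors of the TALE class were tested and 0 passed the threshold of the study between left and right. Of all genes tested, 3.05% passed it, so that a count of 0 in a short list is near that share. Their median log2 difference was -0.03, against -0.0042 over all genes, and their summed level, between 2240 and 2445 normalized counts, varied little between libraries. Of 19 Polycomb and trithorax genes, which keep *Hox* clusters silent or active, 17 were tested and 0 passed, with a median of 0.05 and sums between 3598 and 3907. In the comparison of embryos, 1 gene of each of these 2 lists had an unadjusted p under 0.05, as did 9.99% of all genes, and 0 an adjusted one by edgeR.

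Of 17 upstream regulators of *Hox* genes, 11 were tested, 2 passed between left and right, where 3.05% of all genes did. Between embryos 0 were called at an adjusted p under 0.05 and 2 had an unadjusted one, which 9.99% of all genes had. *Cyp26c1*, which encodes an enzyme that degrades retinoic acid, had 112, 91.9, 73.3 and 206 normalized counts in the left libraries. On the right it had 35.9, 34.7, 87.6 and 16.6, and L46-8 was the only embryo in which the left library was not above the right one. The log2 difference was 1.35 (SE 0.372, unadjusted p = 0.00354, adjusted p = 0.987 from edgeR). Without L46-8, the embryo of opposite direction, it was 1.97 (adjusted p = 0.0388 from edgeR). It was 1.27 without L29-3, 1.33 without L43-5 and 0.90 without L49-3 (adjusted p = 0.9986, 0.969 and 0.9997 from edgeR). *Rarb*, a retinoic acid receptor that retinoic acid itself induces, had 99.7, 91.9, 71.6 and 99.1 on the left and 87.9, 127, 128 and 135 on the right. The right library was above the left one in 3 of 4 embryos (log2 difference -0.40, SE 0.153, unadjusted p = 0.0233, adjusted p = 0.987 from edgeR), and *Rarb* missed the threshold with DESeq2 or when L43-5, L46-8 or L49-3 was left out.

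The lists for other tissues gave no gene past the left-right threshold, which 3.05% of all genes tested passed. They held 13 of 13 tested markers of the second heart field and juxta-cardiac field, 6 of 10 of paraxial mesoderm, 3 of 6 of neural crest, 6 of 7 of foregut endoderm, 2 of 6 of surface ectoderm, 7 of 8 of cardiomyocytes, 5 of 5 of endothelium and 0 of 5 of primitive blood. Between embryos, *Tbx5* and *Myh6* alone in all marker lists had an adjusted p under 0.05. In L49-3, the endothelial sum was 587 normalized counts in the left library and 427 in the right one, against 690 to 776 in the other libraries.

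Several members share exon sequence with other genes, and whether the counting used the strand of the reads is not given in the sources used here. The antisense gene *Hoxb3os*, with 131 reads, covers 52.9% of the exon bases of *Hoxb3* and 27.3% of those of *Hoxb2*. Without strand, reads of such partners cannot be told apart. On the same strand, the *Hoxd3* and *Hoxd4* exons share 388 bases with each other. Of their exon bases, 53.1% and 39.1% lie in the readthrough gene model *Gm28230*, listed with 0 reads. *Gm28308*, also on the same strand and with 0 reads, covers 15.0% of the exon bases of *Hoxa2* and 8.0% of those of *Hoxa3*. How reads in shared stretches were counted is not given, so the levels of *Hoxd3* and *Hoxd4* and the split between them are uncertain. *Hoxa3* has stretches at least 90% identical over 100 bases or more to *Hoxb3* and *Hoxd3*. *Hoxb1* and *Hoxb4* shared no exon bases with another gene and had no such near-identical transcript.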

How the data were processed

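RNA was measured in the left and right heart field of 4 embryos by sequencing of the polyA fraction, from 15 ng of total RNA per side. The deposited raw counts per Ensembl gene were made by the authors, who aligned reads to GRCm38 with Hisat2, counted them with featureCounts (versions not given in the sources used here) and excluded duplicates. The labels and methods name an oriented cDNA kit, but not whether strand was used in counting. Of 48526 gene identifiers, 48144 were matched to GENCODE vM21 for symbols, coordinates and exon lengths.

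From the counts, genes with at least 20 DESeq2-normalized counts in at least 4 of the 8 libraries were kept (9744), the filter of the study, and tested in R 4.3.3 with the quasi-likelihood test of edgeR 4.0.16 on TMM-scaled counts. The model held embryo and side, and p-values were adjusted by the Benjamini-Hochberg method over all genes tested. The sides are paired because they come from the same embryo. For L29-3, L43-5, L46-8 and L49-3, the left and right deviations from the group means had correlations of 0.164, 0.194, -0.011 and 0.443, and those of different embryos -0.389 to 0.257. All 28 pairs of libraries differed by more than sampling noise (chi-square per degree of freedom of at least 1.93). Each embryo is a separate animal.

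DESeq2 1.42.0, limma-voom (limma 3.58.1), other scalings and filters, and leaving out each embryo were tried as alternatives, of which the lower filter (filterByExpr) was added after seeing the data. Near-identical transcripts were searched with blastn 2.17.0. The tests were checked on simulated counts. Total counts per library, 1147446 to 3520753, limit the precision of members with few reads.

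The members and gene lists were chosen with earlier results of these data known. Of the 39 genes that the rule selects, 1 is not reported here, and sums, shares and counts of members leave it out. Members that passed the filter were described with all 8 values, members with at least 10 reads by their counts or range, and the rest by number. Genes of the lists were named when they passed the threshold of the study or an adjusted p under 0.05 in either comparison, at most 4 per list and comparison, beside *Hoxa5*, *Hoxb6*, *En2* and *Wnt8b*. Outside this rule, *Aldh1a2*, *Isl1*, *Sox2*, *Meox1*, *Myh7*, *Msgn1* and *Cdx1* were named after their values were seen. So were *Otx2*, *Pax2*, *T*, *Hand2*, *Osr1*, *Foxf1*, *Mab21l2*, *Wnt2* and *Hand1*.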

Additional observations from a re-analysis of the deposited data

Results flagged for a closer look

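Within the 4 libraries of a side, 42 groups of values were screened for a library far from the others, of which chance flags about 1 in 20. In 1 group a library stood apart. *Rarb* had 87.9 normalized counts in the right library of L29-3, against 127 to 135 in the other right libraries.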

How the results depend on the processing

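Of 229 values recomputed under an alternative, 211 kept their direction and their side of the threshold, or moved by less than the spread. With no replicate block for the pairing by embryo, the log2 difference of left minus right was -0.0050 for *Hoxb1*, 0.16 for *Hoxb2* and -0.31 for *Hoxa3*, and the block changed no call on these members. With no filter 1 member was called between left and right, *Hoxd4* (log2 difference -2.60, unadjusted p = 0.00398 from edgeR, on 30 reads), and 2 were called between embryos, *Hoxb1* and *Hoxb4*. The number of members counted as expressed was 9 at over 5.6 normalized counts, 1 at 20 TMM-scaled CPM and 1 when all 8 libraries had to reach 20 normalized counts, and between 3 and 5 with an embryo left out, the highest without L49-3. The share of groups 1 to 4 in the summed level was 88.1% without *Hoxb1*. The log2 difference of *Hoxb1* turned to 0.075 without L29-3, 0.022 without L43-5 and 0.056 without L49-3 (range -0.23 to 0.075 with an embryo left out), and that of *Hoxb2* to -0.11 without L46-8 (range -0.11 to 0.30). The cause of these changes was not tested. Most members of groups 4 to 13 had few or 0 reads in L49-3, and the part of depth in this was not tested.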

Other observations

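Non-coding genes of the clusters were looked at after the values of the members, so the values below are a description. *Hotairm1*, a non-coding gene of the HoxA cluster, had 202 reads and a normalized count of 24.6 ± 8.84 (SD over 8 libraries), with the left library above the right one in 2 of 4 embryos. *Hoxaas2*, antisense to part of *Hoxa3*, had 137 reads with 15.4, 9.78, 11.4 and 12.4 normalized counts in the left libraries of L29-3, L43-5, L46-8 and L49-3 and 23.5, 16.5, 24.1 and 19.9 in the right ones, a lower left value in each embryo. Of the genes with at least 10 reads, 6.13% were lower on the left in all 4 embryos. *Hoxb3os* had 131 reads with log2 ratios of left to right between 0.04 and 0.42, positive in 4 of 4 embryos. *Haglr*, next to *Hoxd1*, had 61 reads. *Hottip* and *Hotair*, which lie among the 5′ members, had 0 reads.

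*Cdx1*, an activator of *Hox* genes in caudal tissue, had 72 reads and missed the filter. It had 3.24, 2.61, 12.2 and 3.10 normalized counts in the left libraries in the same order, and 4.95, 11.2, 17.8 and 13.3 in the right ones. It was lower on the left in each of the 4 embryos, as were 6.13% of the genes with at least 10 reads, although the sides overlapped.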
